A study of Mus musculus with 8 samples.

Results

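In RAW264.7 cells, which are mouse macrophages in continuous culture, RNA sequencing gave 64 genes whose read counts were lower in all 4 libraries from cells treated with recombinant FSTL1 (rFSTL1) than in all 4 libraries from cells given PBS. The members were chosen from the measured values themselves. Counts were scaled by each library's total (CPM), and genes with a mean of 10 CPM or more over the 8 libraries were kept, which were 8523 of 22013. A member had a highest rFSTL1 value below its lowest PBS value and a log2 ratio of mean CPM (rFSTL1 over PBS) of -0.2 or less. Genes of 9 symbol prefixes were left out, which removed 1 gene starting with Itg and 1 starting with Slc7. Before that step 66 genes qualified (0.774% of the kept genes), and the members were 0.751% of the kept genes. Since the choice used the contrast between the groups, the size and direction of their differences are a description and carry no test.

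The groups were PBS and rFSTL1 at 100 ng/mL, both for 24 h, with 4 libraries each. All cells were of 1 established line, with no other genetic or chemical treatment named in the labels. FSTL1 is a secreted glycoprotein, and the study asked what it does to macrophages in fatty liver disease. Nothing in the labels says that replicates came from separate cultures, so the spread between libraries may be technical. Total counts were between 15062026 and 20234472 per library. Of 12 macrophage markers, 11 had a mean of 10 CPM or more, while all 15 markers of endothelial cells, hepatocytes, fibroblasts and lymphocytes were below 1 CPM.

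C2H2 zinc finger proteins are the largest family of DNA-binding proteins in mammals. Each finger is a short loop held around a zinc ion by a pair of cysteines and a pair of histidines, and repeats of the finger read DNA base by base. Many members of the family carry a KRAB domain, recruit repressive chromatin and silence transposable elements, and they often lie in clusters of recent duplicates. The primary cilium is a sensory projection built on a centriole, and several genes below belong to it or to the centrosome.

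The differences were small. In bulk RNA, fewer cells expressing a gene and less RNA per cell cannot be told apart. The log2 ratio ran from -0.54 to -0.20 with a median of -0.24, which is a level 13.0% to 31.2% lower under rFSTL1 (median 15.2%). A ratio under -0.3 was reached by 12 members, under -0.5 by 1, and 38 lay between -0.25 and -0.2. The same rule in the other direction gave 160 genes, 1.88% of those kept, or 2.5 times as many. Those reached further from 0, with a median of 0.26, a highest value of 0.76, and 57 genes over 0.3. Lack of overlap alone was about as frequent in both directions, with 428 genes lower (5.02%) and 372 higher (4.36%). Of these, 15.4% of the lower and 44.4% of the higher genes reached a size of 0.2. The imbalance in number thus arose at the size threshold.

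The smallest count of a member in any library was 126, in Zfp943. The counting error of the log2 ratio had a median of 0.043. The standard error from the spread between libraries (edgeR) was wider, with a median of 0.070. edgeR's quasi-likelihood test over 10748 genes called 2 members lower at an adjusted p under 0.05, Sla and Fam76b. They were the only lower calls of that fit (0.0186% of genes tested, against 0.326% called higher), and since the members were chosen on the same contrast nothing is read from that count. DESeq2 called 26 of the members (0.82% of genes tested were called lower), limma voom with sample weights 41 (1.95%), edgeR with all genes of at least 1 count 17 (0.177%), and edgeR with a length and GC trend removed 6 (0.103%). How many members passed thus differed between tools and settings, some of which also tested a different number of genes.

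**Figure D1:**
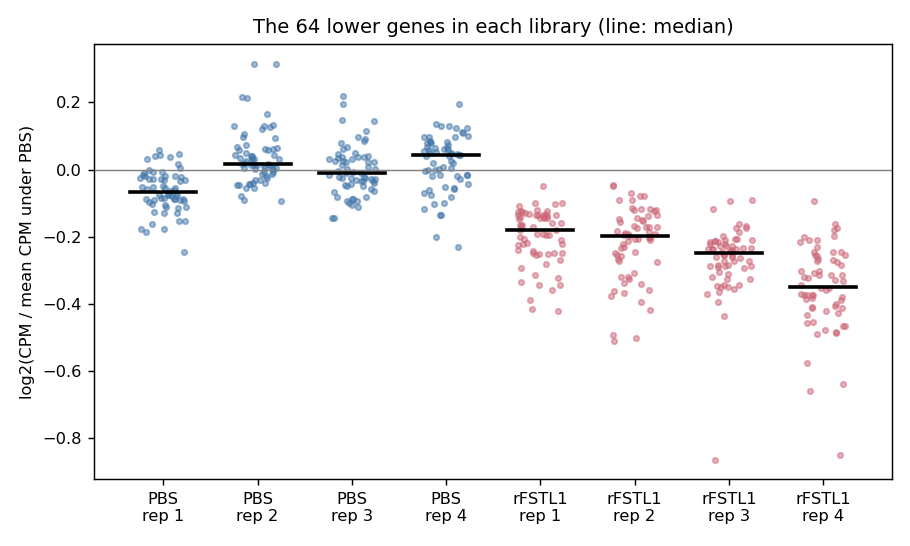
Each point is 1 of the 64 lower genes in 1 library, as log2 of its CPM over its mean CPM under PBS, with PBS in blue, rFSTL1 in red and a line at the median of each library. The medians were -0.07, 0.02, -0.01 and 0.04 in PBS replicates 1 to 4 and -0.18, -0.20, -0.25 and -0.35 in rFSTL1 replicates 1 to 4.

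Libraries of the same group did not sit together equally. The members' median log2 value relative to the PBS mean was -0.18, -0.20, -0.25 and -0.35 in rFSTL1 replicates 1 to 4, against -0.07, 0.02, -0.01 and 0.04 in PBS replicates 1 to 4. rFSTL1 replicate 4 held the lowest value of 43 of the 64 members. For these genes PBS replicate 1 was nearest to the treated libraries and held the highest value of only 1 member, while replicates 2, 3 and 4 held 22, 13 and 28. Over all kept genes the same median lay between -0.03 and 0.02 in the 8 libraries.

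C2H2 zinc finger genes were the largest group with a shared function, with 16 of the 64 members. They were counted as genes whose coding sequence holds 3 or more C2H2 finger patterns (cysteine and histidine codons at the family's spacing), a definition chosen after the members were seen. Of 264 kept genes with such fingers, 16 (6.06%) were members, compared with 48 of 8259 others (0.581%). The lower values were not limited to the members. Of the 264 genes, 187 (70.8%) had a log2 ratio below 0, compared with 4219 of all 8523 kept genes (49.5%), and the median over all of them was -0.07, compared with 0.002 over all kept genes. A list of zinc finger and BTB-zinc finger symbols that was written without reference to sequence held 247 kept genes and 11 of the members, also with a median of -0.07.

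Zfp943 (ENSMUSG00000053347) had the lowest ratio of all members. It measured 10.7, 13.2, 13.4 and 11.00 CPM in PBS replicates 1 to 4 and 10.2, 9.67, 6.64 and 6.70 CPM in rFSTL1 replicates 1 to 4, with a log2 ratio of -0.54. The rFSTL1 libraries fell in a lower and a higher pair, and the upper value of the higher pair was 0.065 (log2) from the lowest PBS library. Zfp942 (ENSMUSG00000071267), its neighbour on chromosome 17, gave 27.03, 37.2, 36.7 and 27.3 CPM under PBS and 25.4, 26.6, 25.2 and 20.3 CPM under rFSTL1, with a ratio of -0.40. In this gene, PBS replicates 2 and 3 stood well above replicates 1 and 4, which were close to the rFSTL1 libraries. Both genes therefore showed PBS replicates 2 and 3 as the highest libraries.

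Zfp943 and Zfp942 lie head to head. In RefSeq's annotation of GRCm38.p6 their starts are at chr17:21962559 on the plus strand and chr17:21962464 on the minus strand, so a stretch of 94 bases lies between them. It is shown because both of the most lowered genes start at its ends, and it is read on the plus strand (chr17:21962465-21962558, 64.9% GC). Capitals mark matches on either strand to ACGTG (which 27.2% of the 300-base promoter windows of kept genes held), to GGGCGG (which 65.1% of those windows held) and to CCGGAA (which 31.5% of those windows held). None of the 3 was rare among promoters.
Zfp942 to Zfp943: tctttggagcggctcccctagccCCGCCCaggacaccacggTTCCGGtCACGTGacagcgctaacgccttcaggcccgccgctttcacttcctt

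Some of the zinc finger members lay close together and were alike in sequence. On chromosome 2, Gm14305, Gm14296 and Gm14418 lay in this order with 1 kept gene between each pair. Finger units of 84 bases are shown for these 3 genes, for Zfp943 and Zfp942, and for Zfp97, so that the likeness between them can be seen. Each starts at the first cysteine codon of a finger in GENCODE's longest coding sequence (GRCm38), and capitals mark the cysteine and histidine codons that hold the zinc.
Gm14305 (chr2:176720629-176720712, plus strand, exon 5): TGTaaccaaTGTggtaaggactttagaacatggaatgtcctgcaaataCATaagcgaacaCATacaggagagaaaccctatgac
Gm14418 (chr2:177387805-177387888, minus strand, exon 4): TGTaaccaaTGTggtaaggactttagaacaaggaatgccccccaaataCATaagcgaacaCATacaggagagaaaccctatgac
Gm14296 (chr2:176917307-176917390, minus strand, exon 1): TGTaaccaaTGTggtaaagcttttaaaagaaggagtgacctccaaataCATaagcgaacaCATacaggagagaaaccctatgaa
Zfp943 (chr17:21992478-21992561, plus strand, exon 4): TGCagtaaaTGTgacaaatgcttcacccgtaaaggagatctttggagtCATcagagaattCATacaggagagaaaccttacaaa
Zfp942 (chr17:21929011-21929094, minus strand, exon 6): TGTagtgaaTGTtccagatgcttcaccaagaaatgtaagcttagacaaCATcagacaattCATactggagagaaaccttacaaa
Zfp97 (chr17:17144718-17144801, plus strand, exon 4): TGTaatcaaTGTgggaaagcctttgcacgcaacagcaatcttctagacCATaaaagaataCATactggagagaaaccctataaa

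Gm14305 and Gm14418 shared 80 of 84 bases (95.2%), Gm14296 shared 75 with Gm14418 and 74 with Gm14305, and Zfp943 shared 65 with Zfp942 (77.4%). Zfp97 shared 57 with Zfp943 and 56 with Zfp942. Members on different chromosomes also reached such values, with 68 shared by Zfp97 and Zfp958 (81.0%). The likeness of Zfp943 and Zfp942 therefore does not by itself mark them as recent duplicates. Reads from genes alike in sequence can be given to more than 1 gene. How the study's counting divided them is not given in the sources used here. Of all 31-base words of its longest transcript, Gm14305 shared 95.98% with other genes, Zfp97 89.8%, Gm14418 55.1% and Gm14296 39.9%. Zfp942 shared 19.2% and Zfp943 13.7%. The values of all these genes are uncertain for that reason.

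The other zinc finger members followed at smaller sizes. Gm14418 gave 35.7, 37.8, 39.3 and 39.3 CPM under PBS and 32.6, 33.2, 31.1 and 27.8 CPM under rFSTL1 (-0.29). Zfp788 gave 17.3, 18.4, 18.7 and 18.5 CPM and 16.6, 12.96, 15.8 and 12.98 CPM (-0.32), with rFSTL1 replicates 2 and 4 lowest. Gm45871 gave 14.4, 20.2, 15.6 and 14.8 CPM and 14.1, 13.7, 14.1 and 10.4 CPM (-0.31), where PBS replicate 2 was far above the other PBS libraries and rFSTL1 replicate 4 far below the other treated libraries. Zfp97 (-0.29) had the same shape under PBS, with 16.8, 21.3, 15.5 and 14.9 CPM against 13.7, 14.8, 13.3 and 14.3 CPM. Zfp729a (-0.26) also had its highest value in PBS replicate 2, with 31.04, 39.03, 32.5 and 31.7 CPM against 29.9, 28.8, 28.3 and 25.3 CPM. The remaining members with fingers had log2 ratios between -0.24 and -0.20. They were Zfp958, Gm14296, Gm14305, Zfp26, Zfp397, Zfp800, Zbtb41, a BTB-zinc finger protein, Zkscan8, a SCAN domain protein, and Trps1, an atypical GATA factor.

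**Figure D2:**
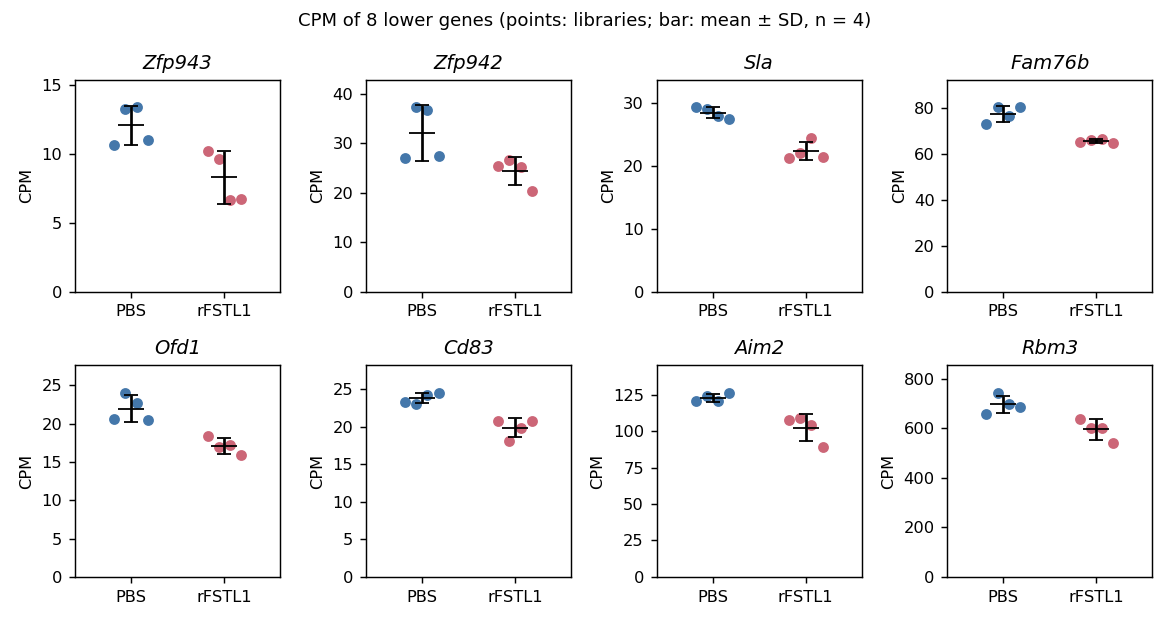
CPM of 8 of the lower genes in each library (points) with the mean and SD of each group (bar, n = 4), on axes that start at 0. In each gene the rFSTL1 points lie below the PBS points, by a small share of the level.

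Genes of the centrosome and the primary cilium made up 7 members if the exocyst is counted in. A list of centrosome and microtubule symbols held 95 kept genes, of which 3 (3.16%) were members (Ofd1, Haus3 and Cep43), and its median was -0.03. The Reactome set for assembly of the primary cilium held 129 kept genes and 5 members (3.88%), Ofd1, Cep43, Arl13b, Exoc5 and Sclt1, with a median of -0.02 over the whole set. Both medians were within 0.03 of that of all kept genes.

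Ofd1, a protein of centrioles and the ciliary base, measured 20.6, 24.02, 22.7 and 20.5 CPM under PBS and 18.4, 16.9, 17.2 and 15.9 CPM under rFSTL1, with a log2 ratio of -0.36. The highest treated library, at 18.4 CPM, was clear of the lowest PBS library, at 20.5 CPM. Haus3, a subunit of the augmin complex that nucleates microtubules in the spindle, measured 56.5, 58.5, 56.8 and 61.8 CPM and 53.5, 52.4, 45.8 and 43.5 CPM (-0.26), and rFSTL1 replicates 3 and 4 were lower than 1 and 2. Cep43, a centriole protein also known as FOP, measured 56.9, 58.9, 60.1 and 54.7 CPM and 49.4, 54.6, 49.3 and 43.7 CPM (-0.23), where rFSTL1 replicate 2 nearly touched PBS replicate 4. Tmem218, a protein of the ciliary transition zone, had the lowest mean CPM of all members, with 11.4, 10.6, 11.7 and 10.2 CPM and 8.76, 9.19, 9.32 and 9.24 CPM (-0.26). Arl13b, a small GTPase of the ciliary membrane, had a ratio of -0.22, Exoc5, an exocyst subunit, -0.22, and Sclt1, a protein of the centriole's distal appendages, -0.21.

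A list of DNA replication and repair genes held 114 kept genes and 3 members (2.63%), with a median of -0.02. The Reactome sets for DNA repair and for cell cycle checkpoints each held 1 member, of 120 and 118 kept genes, which is near the share over all kept genes (0.751%). Rad17 loads the checkpoint clamp onto damaged DNA, and it measured 46.05, 45.8, 46.2 and 50.5 CPM under PBS and 42.2, 45.6, 39.9 and 33.9 CPM under rFSTL1 (-0.22). Its rFSTL1 values spread from 33.9 to 45.6 CPM, and the highest was just under the lowest PBS value of 45.8 CPM. Fancb, a subunit of the Fanconi anaemia core complex, measured 23.8, 24.7, 25.6 and 26.6 CPM and 23.5, 20.1, 22.3 and 20.8 CPM (-0.22). Ercc6l2, a helicase-like repair protein, measured 76.1, 75.9, 70.2 and 78.5 CPM and 67.9, 65.8, 64.9 and 60.95 CPM (-0.21). In all 3 genes rFSTL1 replicate 4 or 2 was the lowest library.

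Of the members, 6 were immune receptors, sensors or adaptors, sorted so after they were seen. The written lists of cytokine receptors, nucleic acid and other innate sensors, and phagocytic receptors held 1 member each, of 39, 32 and 40 kept genes, with medians of -0.01, 0.01 and 0.02. Chemokine and G protein-coupled receptors (44 kept genes) and interferon response genes (37) held none, with medians of 0.04 and 0.14. These medians were near 0 or above it. Sla, the Src-like adaptor that dampens antigen receptor signalling, measured 29.3, 29.1, 27.97 and 27.5 CPM under PBS and 21.2, 22.1, 24.4 and 21.5 CPM under rFSTL1 (-0.35). The gap between its groups, 0.17 on the log2 scale, was among the widest of the members, and rFSTL1 replicate 4 was not its lowest library. Aim2, the cytosolic DNA sensor that builds an inflammasome, measured 121, 124, 121 and 126 CPM and 108, 109, 104 and 89.1 CPM (-0.26). Its rFSTL1 replicate 4 was well below the other treated libraries. Cd83, an immunoglobulin-family surface protein of activated antigen-presenting cells, measured 23.3, 23.03, 24.2 and 24.5 CPM and 20.8, 18.1, 19.9 and 20.7 CPM (-0.26).

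Il18rap, the accessory chain of the interleukin-18 receptor, measured 75.8, 72.1, 70.03 and 78.5 CPM under PBS and 67.9, 61.99, 61.4 and 59.6 CPM under rFSTL1 (-0.24). Cd33, a sialic acid-binding receptor of myeloid cells and 1 of the 5 members with the most reads, measured 295, 306, 314 and 307 CPM and 277, 264, 268 and 253 CPM (-0.20). Pstpip2, an F-BAR protein whose loss causes autoinflammatory disease in mice, had a ratio of -0.24. No other member belonged to these immune classes.

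Of the members, 4 were RNA-binding proteins, sorted so after they were seen. A list of RNA helicases and splicing factors held 2 members of 186 kept genes (1.08%) and a list for mRNA decay 1 of 90 (1.11%), both near the share over all kept genes (0.751%), and each had a median of -0.03. Rbm3, a cold-inducible RNA-binding protein, had the most reads of all members, and measured 657, 744, 697 and 688 CPM under PBS and 639.8, 603, 602 and 539 CPM under rFSTL1 (-0.23). Its closest libraries were PBS replicate 1 and rFSTL1 replicate 1. Hnrnpdl, a nuclear RNA-binding protein, measured 243, 250.3, 248 and 248 CPM and 225, 234, 209 and 189.6 CPM (-0.21). Rnpc3, a protein of the minor spliceosome, measured 44.6, 49.5, 49.1 and 48.9 CPM and 40.4, 41.6, 38.8 and 34.99 CPM (-0.30). Rc3h2 (Roquin-2), which promotes decay of immune mRNAs, had a ratio of -0.23. Scaled per kilobase of the longest transcript and by library (a TPM-like scale), Rbm3 (576) and Hnrnpdl (209) also had the highest levels of the members. Vmn2r53 had the lowest (4.04), over a longest transcript of 22143 bases.

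The next 12 members were signalling, lipid and membrane traffic genes. Hycc2, a subunit of the complex that makes phosphatidylinositol 4-phosphate at the plasma membrane, measured 46.5, 53.04, 61.6 and 50.4 CPM under PBS and 45.5, 43.7, 39.1 and 35.5 CPM under rFSTL1 (-0.37). PBS replicate 1 and rFSTL1 replicate 1 nearly met in this gene. Trpm7, a channel fused to a kinase that carries magnesium, measured 233, 252, 241 and 241 CPM and 219, 211, 209.5 and 186 CPM (-0.23). Erbin, a scaffold that binds the receptor ErbB2, measured 193, 212, 209.9 and 209 CPM and 188, 188, 173 and 166 CPM (-0.21). Abhd6, a lipase that hydrolyses monoacylglycerol, measured 16.5, 15.8, 14.5 and 17.3 CPM and 12.5, 12.5, 13.1 and 14.1 CPM (-0.30), and here rFSTL1 replicate 4 was the highest treated library. Mtmr10, of the myotubularin phosphatase family, measured 24.00, 26.4, 24.5 and 26.02 CPM and 21.3, 19.95, 20.1 and 20.98 CPM (-0.29), with a gap of 0.17 (log2). The others were Cyth3, an exchange factor for ARF GTPases, Rragb, a Rag GTPase of nutrient sensing, Taok1, a kinase, Atg4a, an autophagy protease, Asb13, Evi5 and Fgf13, with ratios between -0.25 and -0.21.

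The remaining members had no function in common. Chromatin and transcription genes were Uty, a Y-linked relative of a histone demethylase (-0.26), Hbp1, a transcriptional repressor (-0.24), and Phf6, a chromatin protein (-0.20). Membrane proteins and enzymes were Tmem65 (-0.32), Vmn2r53, of the vomeronasal receptor family (-0.28), Antxr1, an anthrax toxin receptor (-0.26), Dpy19l4, Nt5dc1 and Gk5. Tmem65 measured 15.3, 16.6, 16.2 and 18.1 CPM under PBS and 14.6, 11.6, 14.4 and 12.4 CPM under rFSTL1. Antxr1 measured 13.8, 14.95, 13.5 and 15.1 CPM and 11.3, 11.9, 12.8 and 11.9 CPM. No role is given here for Ccdc191 (-0.33), Ccdc167 (-0.30), Fam76b (-0.24), 3830403N18Rik (-0.26), 5730455P16Rik (-0.24) and ENSMUSG00000096808 (-0.36), which is named by its identifier because the table holds no symbol.

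The groups were well separated in 2 of these genes. ENSMUSG00000096808 measured 21.3, 23.03, 25.7 and 22.99 CPM under PBS and 18.3, 18.6, 18.3 and 17.2 CPM under rFSTL1, and its gap of 0.20 (log2) was the widest of the members. Fam76b measured 73.1, 80.2, 76.4 and 80.3 CPM and 65.3, 66.1, 66.7 and 64.9 CPM, and its treated libraries lay closer together than its PBS libraries. At the other end, Asb13 (gap 0.0004), Cep43 (0.003) and 3830403N18Rik (0.003) were separated by almost nothing.

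Of 35 functional lists written from general knowledge, 20 held no member. At the share of members among all kept genes (0.751%), lists of this size would hold about 1 member or none, so nothing is read from a count of 0. They included the cytosolic ribosomal proteins (88 kept genes), the mitochondrial ribosomal proteins (76), the electron transport chain and ATP synthase (94), solute carriers (145), ubiquitin ligases (179) and glycolysis enzymes (21). In 30 of the 64 members at least 1 list applied. Of 557 Reactome sets of 15 to 500 kept genes, 516 held no member. Over Reactome sets of any size, 17.2% of the members were in at least 1 set, compared with 38.8% of all kept genes.

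Genomic position was uneven, again as a description. In GENCODE M21 annotation (GRCm38), 8 members lay on the X chromosome (Ofd1, Rragb, Rbm3, Fgf13, Fancb, Atg4a, Phf6 and 3830403N18Rik), out of 258 kept X-linked genes (3.10%, against 0.751% of all kept genes). The median log2 ratio over all kept X-linked genes was -0.05. Among the autosomes, chromosome 13 had the highest share, with 7 of 309 kept genes (2.27%), and a median log2 ratio of -0.04. Fancb and Ofd1 were next to each other among the kept genes, and so were Zfp942 and Zfp943. Median transcript GC was 44.7% over the kept X-linked genes and 48.9% over all kept genes.

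The members also differed from other genes in base composition. The longest annotated transcripts of the 63 members that could be matched had a median GC content of 41.2% (quartiles 39.1% and 44.2%), compared with 48.9% over all kept genes and 54.3% over the 160 genes of the opposite direction. When kept genes were divided into 4 equal bins by GC content, 47 of 63 members (74.6%) lay in the lowest bin, 14 in the second, 2 in the third and 0 in the highest. The 160 higher genes ran the other way, with 7, 16, 50 and 87. GC at the third position of codons had a median of 43.6% in members, 58.5% in all kept genes and 68.1% in the higher genes. Outside the coding sequence the medians were 40.8%, 47.9% and 53.2%, so the difference was in coding and noncoding parts alike. Members were also longer, with a median transcript of 4350 bases against 3559 over kept genes and 2638 in the opposite direction.

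**Figure D3:**
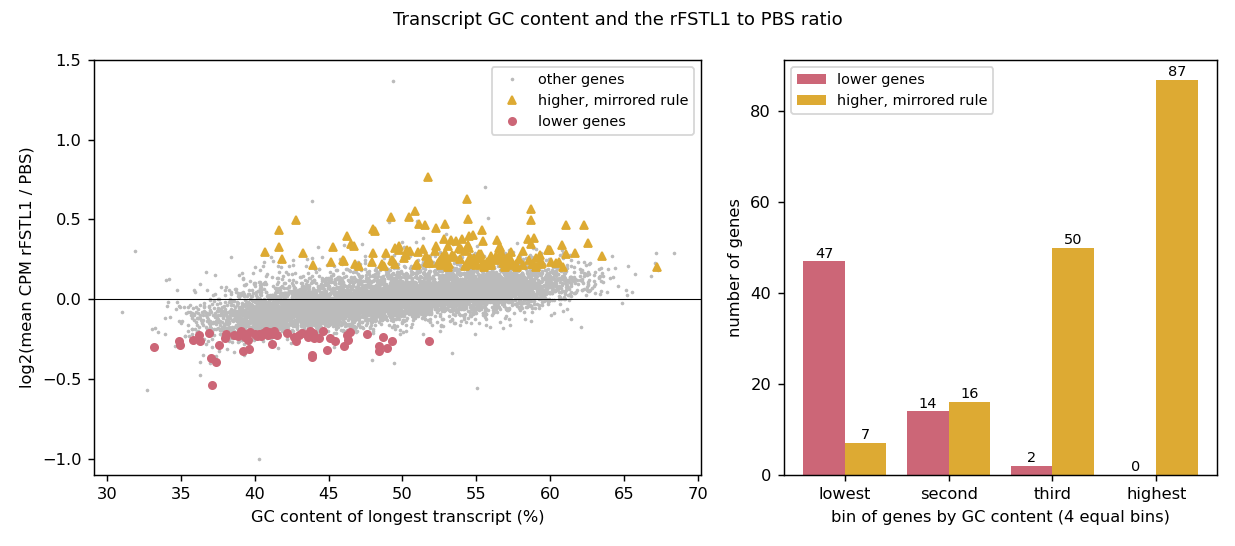
Left, GC content of the longest transcript against the log2 ratio of mean CPM (rFSTL1 over PBS) for each kept gene, with the lower genes as circles and the higher genes of the mirrored rule as triangles. Right, the number of each in 4 equal bins of kept genes by GC content, where the lower genes count 47, 14, 2 and 0 and the higher genes 7, 16, 50 and 87.

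The whole transcriptome followed the same slope. The median log2 ratio of kept genes was -0.08 in the lowest GC bin, -0.03 in the second, 0.03 in the third and 0.07 in the highest. The slope was carried by some libraries more than others. The fitted trend over GC and length had a median in the lowest GC bin of -0.16 in rFSTL1 replicate 4 and -0.08 in replicate 3, compared with 0.03 and 0.05 in replicates 1 and 2. Under PBS it was 0.0003, 0.07, 0.05 and 0.03 in replicates 1 to 4. rFSTL1 replicate 4, in which most members had their lowest value, and rFSTL1 replicate 3 were the only libraries whose trend was below 0 in that bin.

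When each library's trend over length and GC was removed, every one of the 63 matched members was still lower under rFSTL1, at a smaller size. Their median moved from -0.24 to -0.16, with a range of -0.43 to -0.06. At -0.2 or less 20 remained, and 36 still showed no overlap between the groups, for which they had been chosen. Over all kept genes, 326 were lower with no overlap after removal. The rule as a whole was met by 26 genes after removal, of which 17 were members: Zfp943, Ccdc191, Ofd1, Abhd6, Cd83, Ccdc167, Sla, Tmem65, Antxr1, Mtmr10, Pstpip2, Tmem218, Cyth3, Hycc2, Zfp788, Aim2 and Hbp1. Only 2 of the 16 zinc finger members, Zfp943 and Zfp788, were among them. The higher genes changed less, from a median of 0.26 to 0.21, and 76 of 160 still met the mirrored rule.

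**Figure D4:**
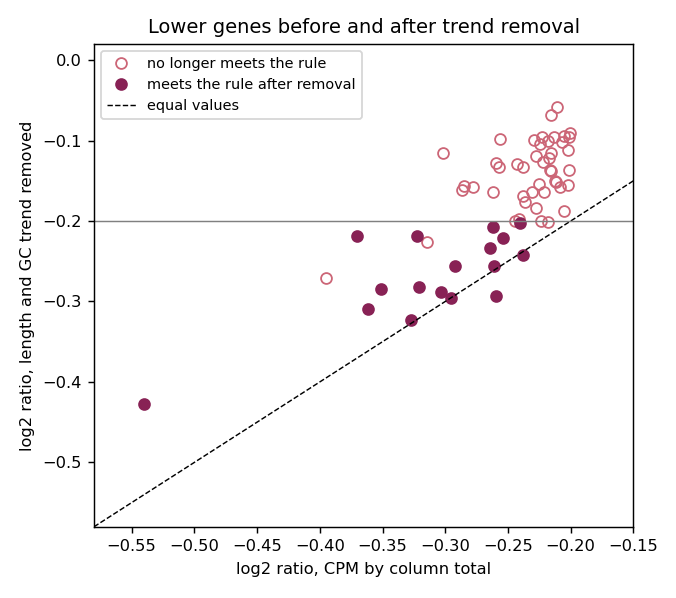
Log2 ratio of each of the 63 matched lower genes from CPM by library total (horizontal axis) against the ratio after each library's length and GC trend was removed (vertical axis), with filled circles for the 17 that still met the rule and a grey line at -0.2. Points lie above the dashed line of equal values except those of Cd83, Pstpip2 and Abhd6, and all stay below 0.

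Zinc finger genes and GC content overlapped. All 16 zinc finger members were in the lowest GC bin, where 141 kept genes of this class had a median ratio of -0.15 and 16 (11.3%) were members. In the same bin, 31 of 1986 other genes (1.56%) were members, and their median was -0.08. A ratio below 0 was found in 133 of those 141 genes (94.3%) and in 1635 of the 1986 (82.3%). Above that bin no zinc finger gene was a member, and their median was 0.02. After trend removal, edgeR's log2 fold change had a median of -0.05 over the 141 low-GC zinc finger genes, against 0.001 for the other genes of that bin. The part of GC content in the members' lower counts was not tested beyond these values.

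Membership changed at the edge of the rule. Members just inside the threshold were Trps1 (54.4 ± 4.05 CPM under PBS and 47.4 ± 2.53 CPM under rFSTL1, SD, n = 4) and Phf6. The 3 genes just outside it were Rmnd5a (74.9 ± 3.15 and 65.3 ± 4.25 CPM), Inpp5f and Slc25a16, all at -0.20 to 2 decimals. Lowering the threshold to -0.1 gave 312 genes, and -0.3 left 12.

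To see how far the choice of members carries over to a library that did not take part in it, the rule was applied to 7 libraries and the genes chosen were looked up in the eighth. The libraries of the other group were those that chose the genes, so part of the separation is given by the choice. The share of chosen genes whose value in the library left out was beyond the other group ran from 41.0% (77 of 188, PBS replicate 1) to 85.9% (55 of 64, PBS replicate 2). The same share over all kept genes was 19.0% and 23.1% for those libraries. For rFSTL1 replicates 1 to 4 it was 53.5%, 53.2%, 84.8% and 83.7%, against 24.1%, 32.5%, 27.3% and 31.7% over all kept genes. Leaving out PBS replicate 1 or rFSTL1 replicate 1 or 2 gave the longest lists (188, 157 and 156 genes) and the lowest shares of chosen genes. Over all kept genes, rFSTL1 replicate 2 had the highest share of the treated libraries.

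**Figure D5:**
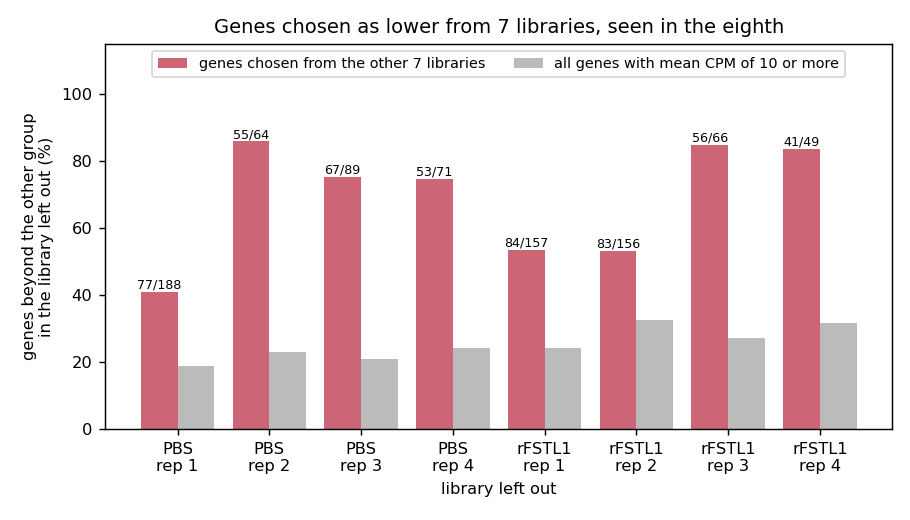
Share of genes beyond the other group in the library left out, for the genes chosen as lower from the other 7 libraries (red, with the counts above each bar) and for all genes with a mean of 10 CPM or more (grey). The red bars run from 41.0% to 85.9% and the grey bars from 19.0% to 32.5%.

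Several members share sequence or position with other genes, so their counts are uncertain. At least 5% of 31-base words were shared with another gene in 18 members (28.1%), and in 1640 of the 8523 kept genes. They included Atg4a (74.9%, with its pseudogene Atg4a-ps), 3830403N18Rik (41.3%, mainly with Xlr) and Rnpc3 (23.6%, with Amy1). Vmn2r53 shared 24.1%, of which part was with Nopchap1 (4.27%), a gene with a mean of 1385 CPM. Others included Zfp729a (26.0%), Zfp942 (19.2%), Gm45871 (16.5%), Rbm3 (16.3%), Zfp943 (13.7%) and Zfp958 (9.13%). Exons of 23 members overlapped another gene, in 17 cases on the opposite strand. Over all kept genes, 3292 of 8523 had such an overlap, 2766 of them on the opposite strand. There, reads from the pair cannot be told apart unless counting used strand. Examples are Hbp1 and Cog5, Rad17 and Ak6, Ofd1 and Trappc2, and Ccdc167 and Cmtr1. Of the members, 45 were under 5% for shared words.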

How the data were processed

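RNA sequencing of 8 libraries was analysed, 4 per group as given by the labels. The authors aligned and counted the reads and deposited an estimated count per gene, without normalization. Per the labels, the processing tools included Bowtie2 2.2.8, HISAT2, StringTie 1.3.1 and DESeq2. The genome build and annotation are not given in the sources used here. Of nonzero values, 13.0% were not whole, and all were rounded. The design had assumed whole counts, and the same tests were used. A symbol was missing in 112 rows.

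Members were found from CPM by library total, as stated in the report. The members and lists were chosen with earlier results of these data known. Groups were compared with edgeR 4.0.16 in R 4.3.3 (filterByExpr, minimum count 10, TMM, quasi-likelihood test, Benjamini-Hochberg adjustment, threshold 0.05), which was tested on simulated data. In that test of rFSTL1 against PBS on 10696 genes, 48.5% of genes changed by 0.25 (log2) were recovered and 76.6% at 0.5, and 6.49% of calls were false. The simulated counts held no library trend over length or GC, unlike the real libraries, so these shares may not hold for the real data. Counting errors cover sampling of reads only. Transcript length, GC content, shared 31-base words and finger patterns came from GENCODE M21. Trends used splines with 4 degrees of freedom per library. The promoter table was RefSeq's (GRCm38.p6). Reactome sets of 15 to 500 kept genes were used, and 96.5% of the identifiers over Reactome sets of any size were matched. Every pair of libraries within a group differed by more than sampling noise (lowest chi-square over its degrees of freedom 3.05).

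The genes named by rule were the 25 members with the lowest log2 ratio, the 5 with the highest CPM, 3 on each side of the threshold, and up to 4 per list with 3 or more members. Other members were named so that each is accounted for, except 1 member that is not reported here. The sorting of members by role was made after they were seen. Alternatives were DESeq2 1.42.0, limma voom (limma 3.58.1), other scalings and filters, a replicate block, trend removal and leaving out each library.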

Additional observations from a re-analysis of the deposited data

Results flagged for a closer look

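Among the 37 members named by rule, 4 of 74 groups of 4 libraries had 1 library set apart by Dixon's test, against 3.7 that chance would give at 1 in 20. Gm45871 measured 10.4 CPM in rFSTL1 replicate 4, against 13.7 to 14.1 CPM in the other treated libraries. Rnpc3 measured 44.6 CPM in PBS replicate 1, against 48.9 to 49.5 CPM in the others. Vmn2r53 measured 45.1 CPM in PBS replicate 4, against 37.0 to 38.3 CPM. Rad17 measured 50.5 CPM in PBS replicate 4, against 45.8 to 46.2 CPM.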

How the results depend on the processing

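The 64 members became 312, 12 and 1 at log2 thresholds of -0.1, -0.3 and -0.5, and 26 with the length and GC trend removed. Leaving out 1 library gave 49 to 188, with 188 without PBS replicate 1 and 157 and 156 without rFSTL1 replicates 1 and 2. TMM, upper-quartile and DESeq2 scaling gave 59, 46 and 60 genes, of which 51, 46 and 52 were members. The members' median of -0.24 became -0.16 with the trend removed and ran from -0.26 to -0.21 over the fits without 1 library. All 37 named members kept their direction, which their choice nearly fixes, under DESeq2, limma voom, the replicate block and, for the 36 with a value, trend removal. Under trend removal 11 of the 36 moved by more than 1 SD between replicates, such as Rnpc3 from -0.30 to -0.11 and Uty from -0.26 to -0.10.

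edgeR called 37 genes. DESeq2 called 192, limma voom 454, edgeR with upper-quartile scaling 56, with all genes of at least 1 count 127, with the trend removed 80, and with trend and replicate block 90 (chosen after seeing the data). Leaving out 1 library gave 11 to 99 calls (24, 11, 12 and 12 without PBS replicates 1 to 4, and 99, 90, 16 and 41 without rFSTL1 replicates 1 to 4). Of the members, 2 were called lower, against 26 by DESeq2, 41 by limma voom, 17 with all genes of at least 1 count, 6 with the trend removed and 4 with trend and block (0.103% of genes tested were called lower in each of the last 2). Without 1 library the count was 0 to 15 (1, 0, 0 and 0 without PBS replicates 1 to 4, and 7, 15, 1 and 0 without rFSTL1 replicates 1 to 4), while over all genes 2, 0, 0 and 0 and then 14, 32, 1 and 0 were called lower (0% to 0.296% of genes tested). The cause was not tested.

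The replicate block left 41 genes called by edgeR, of which 2 were lower (0.0186% of genes tested), and 0 members (64 at an unadjusted p under 0.05, which the choice of members on this contrast brings about). The deviations of same-numbered libraries had correlations of -0.17, 0.25, 0.005 and 0.03. Libraries of different numbers were not compared, so these values cannot decide whether the numbers pair the samples. In the fits without 1 library and with 0 members called, the same count was 58 to 62, and nothing is read from it.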

Other observations

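With the length and GC trend removed, 9 genes outside the 64 met the rule, and they were named after their values were seen. They included 3 genes with zinc finger symbols, Zfp1001 (trend-removed log2 ratio -0.45), Zfp219 (-0.27) and Zfp930 (-0.21), the olfactory receptor gene Or8d1b (-0.40), and Hvcn1, a proton channel of phagocytes (24.7 CPM under PBS and 22.2 CPM under rFSTL1, -0.21). The others were Card14, Sema4b, Pex26 and Arhgef40. Of the 9, 6 had a GC content over 54%, the opposite end from most of the 64 members.

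RefSeq promoters were matched for 47 of the 64 members, under the 80% set for a check of a property over a set, so the comparison of promoter motifs is void and no share over the members is given.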
